A study of Mus musculus with 2 samples.

Results

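Krüppel-like factors are zinc finger transcription factors that bind GC-rich and CACCC sequences in promoters. The members described here were chosen by gene symbol: Klf2, Klf3, Klf4, Klf5, Klf6, Klf7, Klf9, Klf10, Klf11 and Klf13. All 10 were found among 17333 genes with a read in either library. The data are RNA sequencing of cells sorted fresh from mammary glands of 8-week-old adult virgin mice. Every sorted cell had to lack lineage markers and to carry CD105, CD31 and Sca1, and surface Procr, the endothelial protein C receptor, then divided the cells into a Procr-positive (Procr+) and a Procr-negative (Procr-) fraction. Each fraction gave 1 library, so no difference below can be checked against replicates and none has a p-value. The strain, and whether animals were pooled, are not stated in the labels.

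In endothelium, Klf2 and Klf4 are known as genes switched on by laminar blood flow through the kinases MEKK3, MEK5 and ERK5 and the MEF2 factors, after which they raise vasoprotective genes such as Nos3 and Thbd and restrain inflammatory ones. Klf5 is known from dividing epithelium, the luminal cells of the mammary gland included. Klf6 and Klf7 are close relatives with broad roles in injury, growth and differentiation. Klf3 is a repressor that recruits CtBP proteins, and Klf9, Klf10, Klf11 and Klf13 can repress through Sin3a. Klf10 and Klf11 are early response genes of TGF-beta, and Klf9 is a target of the glucocorticoid receptor.

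Promoter sequences of 4 members are shown, because Klf2 and Klf4 are the flow-responsive pair and Klf6 and Klf9 differed at least 2-fold between the libraries. Klf5 also differed at least 2-fold, but neither Klf5 nor Klf10 has a promoter in the RefSeq table used. They are RefSeq sequences of build GRCm38.p6, from 250 bases before to 50 bases after the annotated start, written 5′ to 3′ along the gene's strand. Capitals mark GC boxes, spelled GGGCGG, together with boxes of the letters CCAAT and the MEF2 consensus, each searched on both strands.
Klf2 (chr8:72318812-72319111, plus strand): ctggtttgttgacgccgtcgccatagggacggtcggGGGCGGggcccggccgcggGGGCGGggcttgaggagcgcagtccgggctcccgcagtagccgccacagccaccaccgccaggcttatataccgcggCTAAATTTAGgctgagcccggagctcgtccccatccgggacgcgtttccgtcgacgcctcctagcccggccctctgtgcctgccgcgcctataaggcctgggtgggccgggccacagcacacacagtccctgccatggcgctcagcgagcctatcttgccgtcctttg
Klf4 (chr4:55532426-55532725, minus strand): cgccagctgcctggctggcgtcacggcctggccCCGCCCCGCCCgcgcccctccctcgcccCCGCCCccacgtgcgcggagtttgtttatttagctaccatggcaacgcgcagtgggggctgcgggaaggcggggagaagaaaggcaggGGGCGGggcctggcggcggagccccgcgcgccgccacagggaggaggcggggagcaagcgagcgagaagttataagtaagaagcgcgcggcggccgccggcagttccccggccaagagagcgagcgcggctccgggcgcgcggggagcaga
Klf6 (chr13:5861239-5861538, plus strand): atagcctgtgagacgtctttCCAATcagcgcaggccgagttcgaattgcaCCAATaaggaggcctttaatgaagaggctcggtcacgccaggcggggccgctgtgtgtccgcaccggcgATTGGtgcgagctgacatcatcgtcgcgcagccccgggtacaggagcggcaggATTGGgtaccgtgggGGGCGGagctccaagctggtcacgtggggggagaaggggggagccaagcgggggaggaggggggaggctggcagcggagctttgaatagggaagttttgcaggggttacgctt
Klf9 (chr19:23140976-23141275, plus strand): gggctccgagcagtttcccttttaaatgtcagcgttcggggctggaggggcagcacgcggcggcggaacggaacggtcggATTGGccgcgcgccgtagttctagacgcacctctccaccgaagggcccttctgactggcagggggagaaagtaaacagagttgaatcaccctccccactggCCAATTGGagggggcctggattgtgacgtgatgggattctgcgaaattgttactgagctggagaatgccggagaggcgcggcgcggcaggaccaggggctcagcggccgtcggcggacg

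In this window Klf2 held a match to the MEF2 consensus, with the letters CTAAATTTAG, whose first base lies 118 bases before the start. Among the 8 members with a promoter in the RefSeq table it was the only one, and 3.19% of all 32851 promoters of this length held such a match. GC boxes were found in 7 of the 8, all but Klf9, against 35.7% of all promoters. Klf4 had 4 of them, and the first pair shares a base. CCAAT boxes were found in 4 of the 8 (Klf6, Klf9, Klf11 and Klf13), against 37.4% of all promoters. Klf6 had 4, and Klf9 had 3, of which 2 overlap in the palindrome CCAATTGG. CACCC boxes (CACCC, either strand) were present in 5 of 8 promoters and in 57.5% of all. These matches describe letters in the window and do not show binding.

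The Procr+ library held 9.22 M uniquely mapped reads and the Procr- library 9.57 M. Levels are given in RPKM, reads per kb of listed gene length and per M reads, and 3 reads on a gene of 1 kb came to 0.325 and 0.314 RPKM. Among 12509 genes with at least 1 RPKM in either library, 13.1% stood at least 2-fold higher and 23.7% at least 2-fold lower in the Procr+ library on the log2(RPKM + 1) scale. The median of these genes lay at −0.38, so a member at that value sits in the middle of the transcriptome. Higher genes made up 35.7% of the 2-fold differences as deposited, 51.5% after upper-quartile scaling, 53.4% after TMM scaling and 59.6% after centring on the median. Procr itself was at 1321 against 147 RPKM. The markers of the gated cells were not equal in the libraries. Pecam1, which encodes CD31, was at 712 against 52.7 RPKM. Eng, which encodes CD105, was at 394 against 38.3 RPKM. Cdh5 was at 455 against 46.6 RPKM. The luminal keratin genes Krt8 and Krt18 were at 262 against 5941 RPKM and 232 against 4648 RPKM. Ly6a, the gene of the gate antigen Sca1, was at 203 against 486 RPKM, 2.40-fold (2.27 to 2.53) in favour of the Procr- library. All 18 pan-endothelial markers stood at least 2-fold higher in the Procr+ library (median log2 3.21; summed level 3737 against 408 RPKM), and of 14 luminal epithelial markers 12 were at least 2-fold lower and none higher (median −4.42; 896 against 19980 RPKM). Of 8 basal epithelial markers, 6 reached 1 RPKM and 1, Krt17, was lower (95.5 against 170.4 RPKM summed), all 10 mural cell markers were higher (1210 against 166 RPKM), 7 of 10 fibroblast markers were lower (329 against 852 RPKM), 7 of 10 measured leukocyte markers were higher (943 against 281 RPKM, mostly Cd14), and 2 of 5 lymphatic markers, Lyve1 and Pdpn, were lower (14.3 against 68.1 RPKM). No marker of the pan-endothelial or the luminal list was at 0 in either library. In bulk RNA, fewer cells of a type and less RNA per cell cannot be told apart, and the part of these markers in the differences below was not tested.

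The members did not differ in a common direction. Of the 10, 1 (Klf9) was at least 2-fold higher in the Procr+ library, against 13.1% of all tested genes, and 2 (Klf5 and Klf6) were at least 2-fold lower, against 23.7%. These shares are near the background at this number of genes, and the median log2 ratio of the members, −0.42, was near that of all genes. Their summed level was 694 RPKM in the Procr+ and 1195 RPKM in the Procr- library, a difference that Klf6 alone exceeds. Folds below are ratios of RPM, reads per M of the library total, with an exact 95% counting interval in brackets that covers counting error only.

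**Figure D1:**
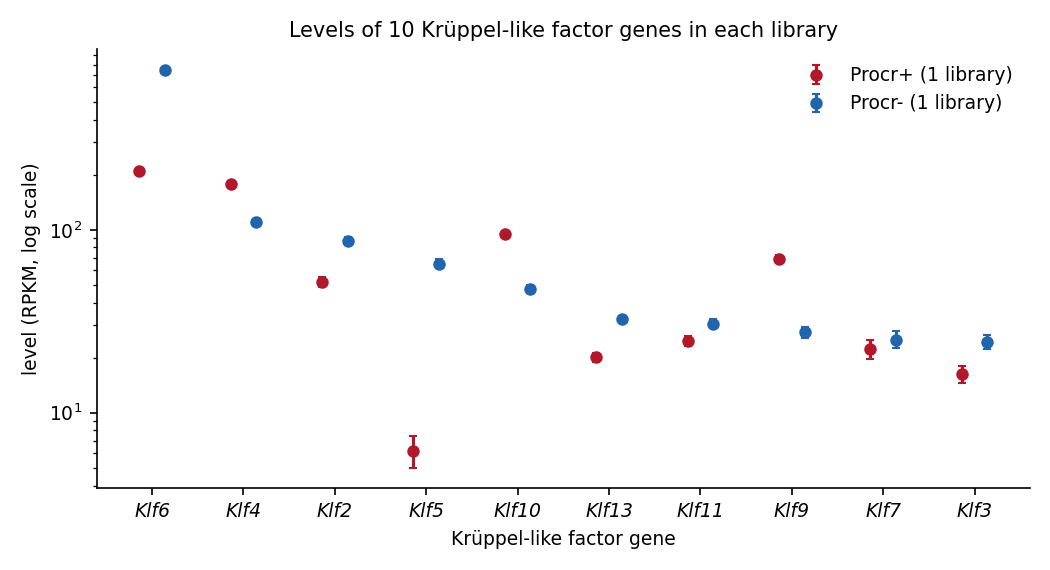
Levels of the 10 members in RPKM on a log axis, in the Procr+ (red) and the Procr- (blue) library. Points are single libraries and bars are exact 95% Poisson intervals of the read counts. Klf6 is highest in both, and Klf5 goes from the lowest member in the Procr+ library, at 6.15 RPKM, to the fourth highest in the Procr- library, at 65.3 RPKM.

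The flow-responsive members divided. Klf2 (chromosome 8, 72319062 to 72321654) was at 51.9 RPKM from 869 reads in the Procr+ and at 86.5 RPKM from 1503 reads in the Procr- library. It was thus 1.67-fold higher (1.53 to 1.81) in the library with the lower endothelial markers. Klf4 (chromosome 4, 55527137 to 55532475) went the other way, at 179 RPKM from 5033 reads against 109.7 RPKM from 3207 reads, 1.63-fold higher (1.56 to 1.70) in the Procr+ library. Neither reached 2-fold on the deposited scale, although Klf4 did after centring on the median of all genes, upper-quartile or TMM scaling. Their directions were the same under each of the 9 other settings, from −0.74 to −0.35 for Klf2 and from 0.70 to 1.08 for Klf4 on the log2 scale. The log2 ratio of Klf2 was above that of 34.4% and the ratio of Klf4 above that of 82.2% of all tested genes. Set against each other inside a library, which needs no scaling between libraries, Klf4 was 3.44-fold (3.20 to 3.70) above Klf2 in the Procr+ and 1.27-fold (1.19 to 1.35) above it in the Procr- library. The balance between them therefore differed 2.71-fold (2.47 to 2.98).

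Klf5, the epithelial member (chromosome 14, 99298691 to 99313412), showed the largest difference of the 10. It had 98 reads and 6.15 RPKM in the Procr+ library against 1079 reads and 65.3 RPKM in the Procr- library, 10.6-fold higher (8.62 to 13.2) in the latter. Only 2.09% of all tested genes had a lower log2 ratio. Against Klf5, Klf2 stood 8.44-fold higher (6.84 to 10.5) in the Procr+ and 1.33-fold higher (1.22 to 1.43) in the Procr- library, so the balance differed 6.37-fold (5.09 to 7.96). For Klf4 over Klf5 the same levels were 29.0-fold (23.8 to 35.8) and 1.68-fold (1.57 to 1.80), a 17.3-fold (13.99 to 21.3) difference. The mean log2 ratio of Klf2 and Klf4 was −0.014, because their opposite ratios nearly cancel. It exceeded that of Klf5 (−3.21) by 3.20, so this difference comes almost wholly from Klf5.

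The log2 ratio of Klf5 lay within the range of the epithelial transcription factors. All 16 genes of that list were lower in the Procr+ library, 14 of them at least 2-fold, with a median log2 ratio of −2.90 against −3.21 for Klf5. Elf5, Grhl2, Grhl3, Ovol2, Trp63, Tfap2a and Esr1 were under 1 RPKM in the Procr+ library. They passed the filter only through the Procr- library, so the filter fixed their direction. Whether the list median or Klf5 was further from 0 depended on the pseudocount. With 0.1 RPKM the list median was −3.67 against −3.39 for Klf5. As plain ratios of RPM, the list median was 13.2-fold and Klf5 10.6-fold in favour of the Procr- library. The most different were Foxa1, the pioneer factor of hormone-sensing luminal cells (1.56 against 45.2 RPKM), the ETS factor gene Ehf (1.36 against 40.6 RPKM) and Sox9 (4.32 against 88.5 RPKM). Among 211 tested genes of the lists, those nearest to Klf5 in log2 ratio were Tfap2a (−3.25) and Ovol1 (−3.09), both of the epithelial list. Tfap2a was at 0.871 against 16.9 RPKM and Ovol1 at 2.09 against 25.4 RPKM. As plain ratios of RPM they were 19.4-fold and 12.1-fold in favour of the Procr- library. The search did not cover all tested genes, and the lists were chosen with earlier results known. It therefore cannot show that Klf5 is nearest to epithelial genes in general. The gene nearest to Klf4 was Itgam (0.70), but at 1.27 against 0.402 RPKM, where the added 1 RPKM pulls a log2 ratio towards 0. Those nearest to Klf2 were Dbp (−0.69) and Col3a1 (−0.78). With 2 libraries this likeness is a likeness of a single ratio. Klf2 and Klf4 stood apart from the endothelial transcription factors, of which 14 of 15 measured were at least 2-fold higher and none lower (median 2.72). Over all tested genes, 13.1% were higher and 23.7% lower. Sox7 was at 118 against 9.35 RPKM, Erg at 129 against 11.9 RPKM and Meox2 at 28.2 against 2.45 RPKM. The only gene of that list with a ratio below 0 was Ets2 (−0.98). Foxc2 of the same list passed the filter only through the Procr+ library, at 3.52 against 0.802 RPKM.

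**Figure D2:**
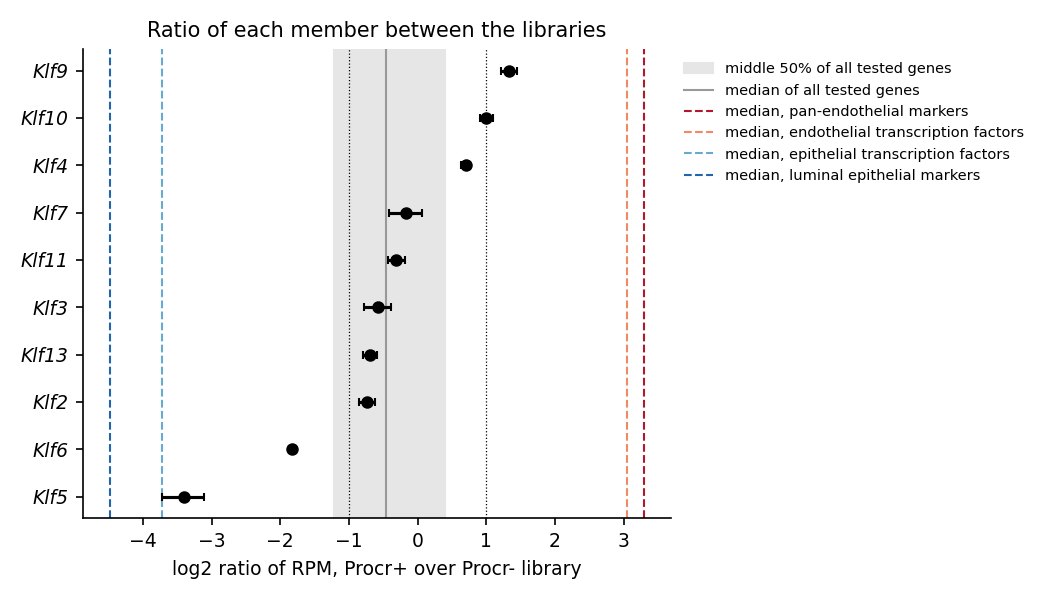
Ratio of each member between the libraries, as log2 of the RPM ratio, with exact 95% counting intervals; positive values are higher in the Procr+ library. The grey band and line give the middle 50% and the median of all tested genes, dashed lines the medians of 4 gene lists and dotted lines 2-fold. Klf5 alone lies near the epithelial lists, and no member lies near the endothelial ones.

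Klf6 was the most abundant member in both libraries. It was at 209.7 RPKM from 8154 reads in the Procr+ and at 746 RPKM from 30090 reads in the Procr- library (chromosome 13, 5861489 to 5870393). The gene was 3.56-fold higher (3.47 to 3.65) in the Procr- library, where 99.2% of tested genes had a lower level. Klf6 took 37.7% (exact interval 37.1 to 38.4) of the members' 21628 reads in the Procr+ library and 71.4% (71.0 to 71.8) of 42134 reads in the Procr- library. Its relative Klf7, known from neurons and fat cells, did not differ beyond counting error, at 22.3 RPKM from 276 reads against 25.1 RPKM from 323 reads. The ratio of Klf7, Procr+ over Procr-, was 0.886 (0.752 to 1.04), and its sign turned after centring, upper-quartile and TMM scaling. Klf6 stood 9.42-fold (8.35 to 10.7) above Klf7 in the Procr+ and 29.7-fold (26.6 to 33.2) above it in the Procr- library.

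Among the members that can repress through Sin3a, Klf9 and Klf10 were higher in the Procr+ library and Klf11 and Klf13 were not. Klf9 (chromosome 19, 23141226 to 23168129) was at 69.5 RPKM from 2090 reads against 27.6 RPKM from 860 reads, 2.52-fold higher (2.33 to 2.73), a log2 ratio above that of 90.3% of tested genes. Klf10 (chromosome 15, 38291464 to 38300711) was at 95.1 RPKM from 2671 reads against 47.5 RPKM from 1383 reads. That is 2.004-fold (1.88 to 2.14), and with a log2(RPKM + 1) ratio of 0.99 it fell just under the 2-fold limit that 6 of the other settings put it over. Klf13, a factor known from lymphocytes, was 1.62-fold higher (1.505 to 1.74) in the Procr- library, with 32.4 RPKM against 20.04 RPKM. Klf11 was at 30.6 RPKM there and 24.7 RPKM in the Procr+ library, 1.24-fold (1.13 to 1.35), and its sign turned after centring, upper-quartile and TMM scaling. The CtBP-dependent repressor Klf3 was 1.49-fold higher (1.30 to 1.72) in the Procr- library, at 24.3 RPKM from 538 reads against 16.3 RPKM from 347 reads. Klf13 and Klf3 stayed below 0 on the log2 scale under all 9 other settings, from −0.69 to −0.29 and from −0.58 to −0.17. Their log2 ratios were above those of only 37.0% and 42.4% of tested genes, so both lay near the middle of all genes.

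The orthology column of the deposited tables puts 8 of the members into 4 groups, and in each group the relatives differed unequally. Klf9 was 3.47-fold (3.23 to 3.73) above Klf13 in the Procr+ library and below it in the Procr- library, at 0.850 of its level (0.783 to 0.921), a 4.08-fold (3.66 to 4.54) change of balance. Klf10 exceeded Klf11 3.85-fold (3.57 to 4.15) and 1.55-fold (1.43 to 1.68), so their balance differed 2.48-fold (2.23 to 2.77). With Klf4 over Klf2, 3 of the 4 pairs held members on opposite sides of 0 on the deposited scale. In the Klf10 and Klf11 pair this ends under the 3 scalings that turn Klf11. The same 3 scalings turn Klf7 but not Klf6, so that Klf6 and Klf7 then lie on opposite sides. In the fourth pair, Klf6 and Klf7, the balance in the Procr+ library was 0.317 (0.270 to 0.373) of that in the Procr- library.

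**Figure D3:**
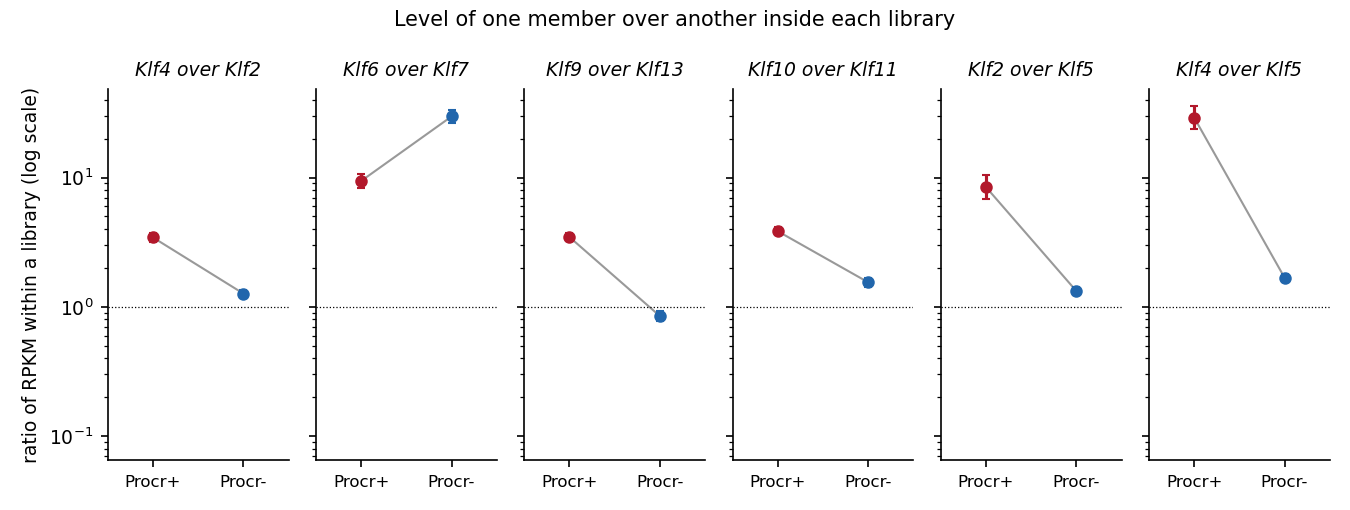
RPKM of a member divided by that of another inside each library, on a log axis, with exact 95% counting intervals; the dotted line marks equal levels. The first 4 panels are relatives of the same orthology group and the last 2 set a flow-responsive member over Klf5. Every pair but Klf6 over Klf7 has the higher ratio in the Procr+ library, from 3.44 to 29.0 against 0.850 to 1.68.

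The order of the levels changed between the libraries. From high to low it ran Klf6, Klf4, Klf10, Klf9, Klf2, Klf11, Klf7, Klf13, Klf3, Klf5 in the Procr+ library. Of these neighbours, Klf11 and Klf7 (1.11-fold, 0.969 to 1.28) and Klf7 and Klf13 (1.11-fold, 0.971 to 1.27) did not differ beyond counting error. In the Procr- library the order was Klf6, Klf4, Klf2, Klf5, Klf10, Klf13, Klf11, Klf9, Klf7, Klf3. There Klf13 and Klf11, Klf9 and Klf7, and Klf7 and Klf3 did not differ beyond counting error. Levels of different genes depend on the listed length, which for 4 members was under 80% of the longest GENCODE M21 transcript (Klf3, Klf5, Klf7 and Klf9; 17.5% for Klf7), whereas ratios of a gene between the libraries do not. Exons of Klf3 and Klf7 overlap exons of antisense genes, which have no row in the files used here, and use of strand is not stated.

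Of the 7 other Klf genes, Klf16, Klf8 and Klf12 reached 1 RPKM, and none of the 3 differed 2-fold. Here and for the Sp genes below, the shares over all tested genes were 13.1% higher and 23.7% lower. Klf16, in the group of Klf9 and Klf13, was at 20.5 and 27.6 RPKM, and its 1.35-fold difference (1.201 to 1.52) went the way of Klf13. Klf1, Klf14, Klf15 and Klf17 had 0, 1, 0 and 0 reads in the Procr+ and 1, 2, 1 and 5 reads in the Procr- library, and 0 reads allows up to 3 at a one-sided 95% limit. The Sp genes, the nearest relatives of the family, showed no 2-fold difference among the 4 that reached 1 RPKM, of 7 listed. Sp1 was at 20.5 and 30.1 RPKM, Sp2 at 6.96 and 11.6 RPKM, Sp3 at 33.5 and 28.1 RPKM, and Sp4 at 5.79 and 3.44 RPKM, while Sp5, Sp6 and Sp7 stayed under 1 RPKM in both.

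Genes of the flow pathway around Klf2 and Klf4 were next set beside them. Over all tested genes, 13.1% were at least 2-fold higher and 23.7% lower, with a median log2 ratio of −0.38. Of 12 measured upstream genes, 3 exceeded 2-fold in favour of the Procr+ library and none the reverse (median log2 0.18). They were Mef2c at 15.0 against 1.33 RPKM, Mef2a at 59.5 against 19.2 RPKM and Heg1, a receptor of the cerebral cavernous malformation pathway that restrains Klf2 and Klf4, at 24.7 against 9.03 RPKM. None of the kinase genes reached 2-fold on the deposited scale, and single kinase genes were not followed under the other settings. Map3k3, which encodes MEKK3, was at 50.7 against 32.3 RPKM, 1.57-fold higher (1.45 to 1.71) in the Procr+ library. Map2k5, which encodes MEK5, was at 7.25 and 7.36 RPKM and Mapk7, which encodes ERK5, at 17.0 and 13.3 RPKM.

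Of 11 measured genes that flow or Klf2 and Klf4 are known to induce, 8 exceeded 2-fold in favour of the Procr+ library and none the reverse (median 2.32). Beside this list and the next, the shares over all tested genes were 13.1% higher and 23.7% lower (median −0.38). Nos3, the endothelial nitric oxide synthase gene, was at 75.9 against 11.0 RPKM (6.89-fold, 6.23 to 7.64). Thbd, which encodes thrombomodulin, was at 167 against 31.4 RPKM (5.34-fold, 5.01 to 5.70). Aqp1 (2694 against 81.4 RPKM) and the quinone reductase gene Nqo1 (47.6 against 4.65 RPKM) differed most. Of 11 measured genes that Klf2 or Klf4 is known to restrain, 7 were also at least 2-fold higher and 1 lower (median 2.55). The adhesion gene Sele was at 616 against 7.93 RPKM and the cytokine gene Il6 at 2266 against 181 RPKM, whereas F3, the tissue factor gene, was at 34.4 against 935 RPKM. Both lists thus lay on the same side as the pan-endothelial markers (median 3.21), while Klf2 was at −0.73 and Klf4 at 0.70.

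**Figure D4:**
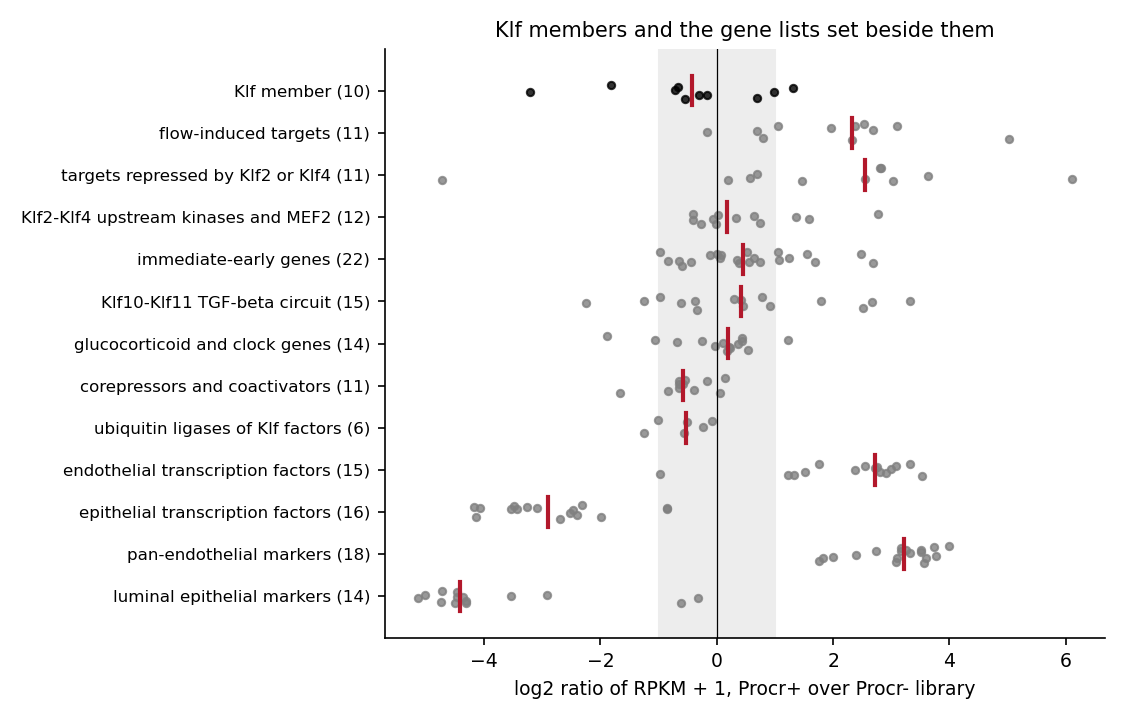
Log2(RPKM + 1) in the Procr+ minus that in the Procr- library, for each measured gene of 13 lists, with the number of genes in brackets; vertical scatter within a row has no meaning, red bars are medians and the shaded band marks less than 2-fold. The Klf members (median −0.42) spread from −3.21 to 1.30, whereas both target lists have medians above 2-fold, at 2.32 and 2.55.

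Klf2, Klf4, Klf6 and Klf10 are also known as immediate-early genes, which cells switch on within minutes of a stimulus, tissue dissociation included. Of 22 such genes on a list without the Klf members, 7 exceeded 2-fold in favour of the Procr+ library and none the reverse (median 0.45). Over all tested genes, 13.1% were higher and 23.7% lower, with a median of −0.38. On the list 15 genes lay above 0 and 7 below. Fosb, at 293 against 579 RPKM, fell just short of 2-fold lower (log2 −0.98). Fos was at 643 and 1004 RPKM and Egr1 at 339 and 324 RPKM, and Egr2 at 8.90 and 5.95 RPKM. The nuclear receptor genes Nr4a3 (57.9 against 8.16 RPKM) and Nr4a2 (59.0 against 9.79 RPKM) and the AP-1 gene Fosl2 (174 against 53.1 RPKM) differed most. The part of this response in the Klf levels was not tested.

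For Klf10 and Klf11, 15 genes of TGF-beta signalling were measured, of which 4 were at least 2-fold higher and 2 lower (median 0.41). The higher ones included the co-receptor genes Eng (394 against 38.3 RPKM) and Tgfbr3 (29.9 against 4.44 RPKM). The others were the receptor gene Acvrl1 (72.6 against 10.5 RPKM) and Smad6. Eng is also the gene of the gate antigen CD105 and stands on the list of pan-endothelial markers. The lower ones were Smad3 (19.3 against 95.9 RPKM) and the ligand gene Tgfb2 (3.08 against 8.67 RPKM). Smad7, the feedback inhibitor that Klf10 is known to repress, was at 46.0 against 23.9 RPKM. For Klf9, 14 glucocorticoid and clock genes gave 1 higher, Cebpd (84.0 against 35.4 RPKM), and 2 lower, Per2 (6.33 against 26.0 RPKM) and Per3 (1.04 against 3.25 RPKM), with a median of 0.19. Beside both lists, the shares over all tested genes were 13.1% higher and 23.7% lower, with a median of −0.38. The receptor gene Nr3c1 was at 19.6 and 13.3 RPKM, and its target Fkbp5 at 13.9 and 12.0 RPKM. Tsc22d3, another target, was at 15.8 and 12.0 RPKM.

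Partners of the Klf proteins were set beside the median of all tested genes, −0.38. Of 11 cofactor genes, none was 2-fold higher and 1, Fhl3 (3.22 against 12.3 RPKM), was lower (median −0.57), against 13.1% and 23.7% of all tested genes. Among them Ep300 was at 10.2 and 19.1 RPKM and Sin3b at 20.7 and 33.1 RPKM. Ctbp1 was at 34.7 and 52.1 RPKM and Sin3a at 17.1 and 15.4 RPKM. Of 6 ubiquitin ligase genes, none was higher and 2, Smurf1 (16.1 against 39.5 RPKM) and Itch (8.37 against 17.8 RPKM), were lower (median −0.53), again beside shares of 13.1% and 23.7% over all genes. Vhl was at 4.49 and 7.08 RPKM. Wwp1, a ligase known to target Klf2 and Klf5 for degradation, was at 3.85 and 4.69 RPKM.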

How the data were processed

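Single Illumina HiSeq reads were kept where they mapped to a unique place in mm10, per the labels' protocols. The sources used here name no aligner, counter or annotation and do not say whether strand was used. The authors deposited whole-number read counts, RPKM, the percent of gene length covered and gene lengths; the counts summed to the total in each header, and a gene without a row was taken as 0 reads. RPKM equalled the counts over length and total, per the file headers. Coordinates came from RefSeq GRCm38.p6, matched by gene ID for 10 of 10 members. Promoters of the same build were matched by symbol and were available for 8 members, all but Klf5 and Klf10.

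The scale was log2(RPKM + 1), Procr+ over Procr-, among genes with at least 1 RPKM in 1 library, and 2-fold was the limit. Ratios have Clopper-Pearson 95% intervals, and balances between members normal intervals on the log scale; PCR copies are not independent molecules. The calculations were tested on simulated data. With 1 library per group no test was possible. Members and 20 gene lists were chosen with earlier results of these data known, and Eng and Trp63 each stand on 2 lists. The rule for named genes took all members, other Klf and Sp genes, the 3 genes of each list with the largest absolute ratio, 10 set genes and the 2 genes nearest in ratio to each of Klf2, Klf4 and Klf5, of which 1 is not reported here. The marker lists are given mainly as counts and sums, so most of their 3 genes are not named. Other genes named, among them Smad6, Smad7, Ets2, Wwp1, Ctbp1, Sin3a, Fos, Fosb, Egr1, Egr2, Map3k3, Ly6a, Nr3c1, Fkbp5 and Tsc22d3, were chosen after their values were seen. Alternatives were a pseudocount of 0.1 or 0.5, keeping every gene, keeping genes of at least 5 RPKM, median centring, TPM, upper-quartile scaling, TMM (edgeR 4.0.16), and RPM with a prior of 1 read. Python 3.11.15 and scipy 1.17.1 were used.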

Additional observations from a re-analysis of the deposited data

How the results depend on the processing

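Klf5 and Klf6 were at least 2-fold lower, and Klf9 at least 2-fold higher, in the Procr+ library under all 9 other settings, and the 95% counting intervals of these 3 also lay past 2-fold. The number of members at least 2-fold higher was 1 as reported. It was 2, with Klf10 added, with a pseudocount of 0.1 RPKM, as TPM and as RPM with a prior of 1 read. It was 3, with Klf4 added as well, after centring on the median of all genes, upper-quartile and TMM scaling. Over all genes, the number at least 2-fold lower went from 2964 to 1644 after median centring and to 1929 after TMM scaling. Of 90 single-member values, 31 moved by more than the distance from the middle of the log2 counting interval to its end. None of the called ones turned its sign. Of 180 list medians, 24 moved by more than the semi-interquartile range of the ratios in their list. No paired analysis was possible because there is 1 library per group, and no replicate could be left out. Depth limits the genes near 1 RPKM most; the members had at least 98 reads in each library.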
